A study of Oryza sativa with 12 samples.

Results

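The comparison described here sets shoots of 12-day-old wild-type rice against shoots of 5-day-old wild-type rice, and asks which transcripts were higher or lower in the older seedlings. Its members are the loci that the authors tested between these groups and that reached 5 FPKM in at least 1 of them, which gave 16356 of the 37672 loci in the deposited table. FPKM counts sequenced fragments relative to transcript length and to the total mapped, so levels can be compared between genes. Of the members, 15202 hold 1 annotated gene, 853 hold several merged genes and 301 hold none.

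RNA was taken from the aerial parts of Oryza sativa, cultivar Nipponbare, in 12 samples that form 4 groups of 3 biological replicates. The older group is wild type, 12 days old. It began on agar, and on day 7 these plants were put into a plastic container with a hypotonic tap-water solution. The younger group is wild type, 5 days old, taken before that move, and still on agar with diluted Murashige and Skoog medium in closed sterile boxes. Both were kept at 27 °C with a 12 h photoperiod. The other groups are 12-day-old knockout plants of lines a and b of OsC3'H1, a gene of lignin precursor synthesis. The labels do not describe a move for the knockouts, and the line letters differ between sample titles and source names, of which the titles were followed. Age and the change of medium, nutrients and container therefore differ together between the wild-type groups and cannot be told apart. Genotype and the move likewise cannot be told apart where a knockout line is set against 12-day wild type.

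A rice seedling lives at first on the starch and protein of the grain and then on its own photosynthesis, as successive leaves green and expand. Chloroplast building needs chlorophyll and antenna proteins, which catch light, while carbon gain rests on Rubisco and the Calvin cycle. Rubisco also takes up oxygen, and photorespiration recycles the product of that reaction through chloroplast, peroxisome and mitochondrion. Mineral uptake, the circadian clock and the juvenile-to-adult phase programme are also known to follow age and growth conditions.

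The deposited table gives 1 FPKM value per group, made from its replicates together, so no spread between replicates can be shown and depth is unknown. The error beside a log2 ratio below is the one implied by the authors' test statistic, that is, the ratio divided by the statistic. A gene is called higher or lower where the authors' deposited q is under 0.05. The smallest q in the table is 0.000253, and q is printed beside a called gene where it is larger. The targeted gene of the knockouts, C3'H1 (IRGSP-1.0 chromosome 5, 24271089 to 24275162), had, in the authors' deposited table, 10.7 FPKM in line a, 12.8 in line b, 53.1 in 12-day wild type and 65.7 in 5-day wild type.

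By the q values of the authors' deposited table, 29.1% of the members were called, 2477 higher (15.1%) and 2289 lower (14.0%) at 12 days. Calls of at least 2-fold (6.87%) were less even, with 828 higher (5.06%) and 296 lower (1.81%), and 4-fold calls numbered 204 higher and 55 lower, loci listed at 0 in one group included. The median log2 ratio of all members was -0.02, and the median implied error was 0.32. Called loci had a median of 0.74 among those higher and -0.54 among those lower. Reading the test statistic against its own implied error, in place of the deposited p, called 1113 members (6.80%), 755 of them higher and 358 lower.

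**Figure D1:**
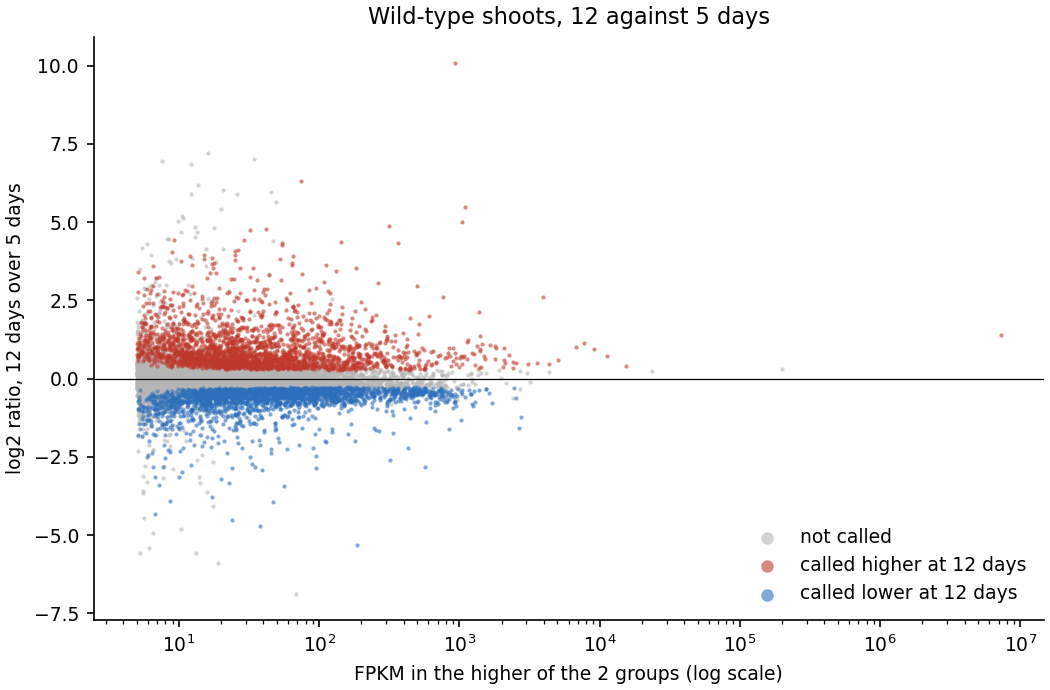
Each point is 1 member with a value above 0 in both groups; the horizontal axis is its FPKM in the higher group on a log scale, and the vertical axis is the log2 ratio of 12-day over 5-day wild type. Red points were called higher at 12 days and blue points lower by the deposited q, and more called points lie at 1 or above (811) than at -1 or below (293).

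Calls followed expression level. Among the 303 loci at 500 FPKM or more in one of the groups, 28.1% were called higher and 40.3% lower. Among the 3572 loci between 5 and 10 FPKM the shares were 9.04% and 6.05%. The median implied error was 0.21 in the first of these classes and 0.53 in the second. The median log2 ratio also fell with level. It was 0.03 between 5 and 10 FPKM, -0.13 between 100 and 500 FPKM and -0.19 at 500 FPKM or more. The list medians below are not adjusted for level. Just inside the level minimum, the lowest member reached 5.0006 FPKM, and the tested locus just outside it reached 4.99973 FPKM. The 100 members just inside had a median log2 ratio of 0.17, and the 100 tested loci just outside had -0.0001.

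**Figure D2:**
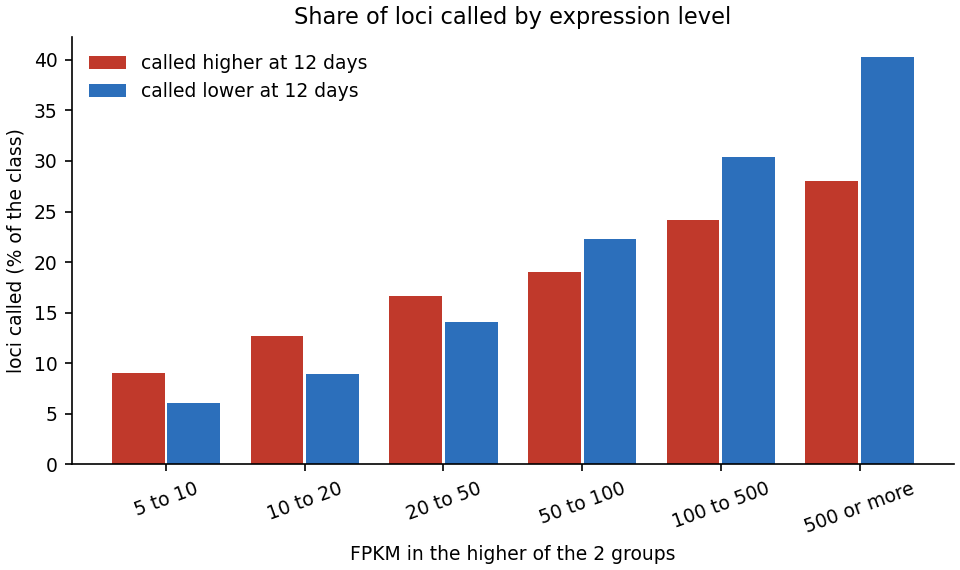
Bars give the percentage of loci called higher (red, left) and lower (blue, right) at 12 days in 6 classes of FPKM in the higher group. Lower calls outnumber higher calls from 50 FPKM upward, and higher calls outnumber lower ones below that level.

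The tissue label was checked against marker genes. Green-leaf genes were abundant at both ages, and the rubisco activase RCA alone reached 9116 FPKM at 12 days and 4706 FPKM at 5 days. The leaf markers did not move together, since RCA was called higher, CAB2R and LHCB2 lower, and RBCS2 in neither direction. Of 4 root markers, the silicon exporter LSI2 and the iron-chelate transporter YSL15 were listed at 0 in both groups, and the markers summed to 2.44 FPKM at 12 days and 11.7 FPKM at 5 days. Nearly all of that was LSI1, a silicon channel of the root, at 2.31 FPKM at 12 days and 10.7 FPKM at 5 days (log2 -2.22, implied error 0.71). LSI1 was called lower, and its part in the other results was not tested. The 7 markers of endosperm and scutellum summed to 3.73 FPKM at 12 days and 3.91 FPKM at 5 days, with the amylase RAMY1A and the glutelin GLUB1 listed at 0 in both groups. The 5 class I KNOX genes, which mark the shoot meristem, summed to 9.24 FPKM at 12 days and 0.446 FPKM at 5 days. OSH1 stood at 3.18 FPKM at 12 days and was listed at 0 at 5 days. All 5 lay below the level that the authors tested, so no call exists for them. Here and below, fewer cells of a type and less RNA per cell cannot be told apart in whole shoots.

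Functional lists written by locus held 218 members, of which 69 were called higher (31.7%), 47 lower (21.6%) and 102 in neither direction, against 15.1% higher and 14.0% lower over all members. The lists were chosen with earlier results known, so nothing is read from that difference. Their names were checked against the RefSeq annotation of another rice assembly, where 144 had the same symbol at the same place. The others are named by locus alone.

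Among the carbon lists, all 6 members of photorespiration were called higher at 12 days, with a median log2 ratio of 1.01, against -0.02 over all members. HPR1, the hydroxypyruvate reductase of peroxisomes (chromosome 2, Os02g0101500), stood at 1147 FPKM at 12 days and 491 FPKM at 5 days (log2 1.22, implied error 0.23). GLO1, a glycolate oxidase, stood at 1451 FPKM at 12 days and 669 FPKM at 5 days (log2 1.12, implied error 0.22). SHMT1, the serine hydroxymethyltransferase that works with glycine decarboxylase, stood at 1781 FPKM at 12 days and 870 FPKM at 5 days (log2 1.03, implied error 0.24). These enzymes were thus a little over 2-fold higher in the older shoots. AGT1, the aminotransferase that uses serine and glyoxylate, was at 1834 FPKM at 12 days and 928 FPKM at 5 days. The glycine decarboxylase subunits rose less, GDCP with a log2 ratio of 0.81 and GDCH with 0.49. GDCH, the most abundant of the list, was at 2530 FPKM at 12 days and 1807 FPKM at 5 days (q 0.000914 in the authors' deposited table). CATC, a leaf catalase that removes the hydrogen peroxide made by glycolate oxidase, was at 1406 FPKM at 12 days and 548 FPKM at 5 days (log2 1.36, implied error 0.30). CATC belongs to a list of 9 antioxidant enzymes with 2 higher and 2 lower calls and a median log2 ratio of 0.02. Beside these stand 15.1% higher and 14.0% lower over all members. In the authors' deposited table the catalase CATA was called lower (log2 -0.49, q 0.0430), as was the ascorbate peroxidase APX2 (log2 -0.41, q 0.0451). The superoxide dismutase SODCC2 was called higher (log2 0.33, q 0.0258), and CATB was not called (log2 0.23, q 0.115), in that table. Of these 4 antioxidant calls, that of CATC alone held on the implied error. Tested with the implied error, 4 of the 6 photorespiration calls held, GDCP and GDCH being the exceptions.

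The Calvin cycle moved the same way in 7 of 9 members, with a median log2 ratio of 0.60. The share called higher was 15.1% over all members and 28.1% over those at 500 FPKM or more. Carbonic anhydrase (CA), which supplies carbon dioxide from bicarbonate, had 6767 FPKM at 12 days and 3379 FPKM at 5 days (log2 1.00, implied error 0.24). PRK, the phosphoribulokinase that remakes the Rubisco substrate, had 2090 FPKM at 12 days and 1055 FPKM at 5 days (log2 0.99, implied error 0.24). Transketolase (TKL) and the glyceraldehyde-phosphate dehydrogenase subunit GAPB were not called, at log2 ratios of 0.13 and 0.14. RCA was called higher (log2 0.95, implied error 0.34, q 0.00132 in the authors' deposited table). Rubisco small-subunit genes are near-identical copies, so the split of reads among them is uncertain. RBCS5 and RBCS3 were called higher (log2 0.73 and 0.39, the second with q 0.00734 in the authors' deposited table), whereas RBCS2, the most abundant, had 23720 FPKM at 12 days and 20083 FPKM at 5 days and was not called (q 0.282 in that table). On the implied error, 3 of the 7 Calvin cycle calls held, and none of the Rubisco and activase calls did.

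The photosystems and the electron transport chain between them had 19 members, of which 12 were called higher and 1 lower (median log2 0.38). Beside these stand 15.1% higher and 14.0% lower over all members. PSAK, a photosystem I subunit, was at 1662 FPKM at 12 days and 784 FPKM at 5 days (log2 1.08, implied error 0.20). PSBS1, which senses lumen acidity and starts the dissipation of excess light, was at 646 FPKM at 12 days and 352 FPKM at 5 days (log2 0.88, implied error 0.20). LFNR2, a leaf ferredoxin-NADP reductase, was at 1232 FPKM at 12 days and 706 FPKM at 5 days (log2 0.80, implied error 0.21). Plastocyanin (PETE), the most abundant of the list, was at 4355 FPKM at 12 days and 3133 FPKM at 5 days (log2 0.48, implied error 0.23, q 0.00152 in the authors' deposited table). The exception was PSBR, at 12.4 FPKM at 12 days and 59.3 FPKM at 5 days (log2 -2.26), which lies beside close copies that can share its reads. The implied error left 3 of the 12 higher calls in place, along with PSBR.

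The light-harvesting antenna went the other way in 8 of 11 members, with 2 called higher and a median log2 ratio of -0.86. The share called lower was 14.0% over all members, 30.4% between 100 and 500 FPKM and 40.3% at 500 FPKM or more. CAB1R, a chlorophyll a/b protein of photosystem II (chromosome 9, Os09g0346500), was at 53.1 FPKM at 12 days and 319 FPKM at 5 days, 6.02-fold lower (log2 -2.59, implied error 0.21). LHCB2, a partner of such proteins in the antenna trimers, was at 92.9 FPKM at 12 days and 430 FPKM at 5 days (log2 -2.21, implied error 0.21). CAB2R was at 273 FPKM at 12 days and 840 FPKM at 5 days (log2 -1.62, implied error 0.21), and LHCB3 had a log2 ratio of -1.25. Decreases were smaller in LHCB5 (log2 -0.92), LHCA4 (-0.86), LHCA1 (-0.73) and LHCB6 (-0.43, q 0.000914 in the authors' deposited table). The antenna of photosystem I was divided, since LHCA2 and LHCA3 were called higher at log2 ratios of 0.32 and 0.31 (q 0.0218 and 0.0296 in that table). LHCB4, the most abundant member, had 991 FPKM at 12 days and 1143 FPKM at 5 days and was not called. Summed over the list, antenna transcripts came to 4005 FPKM at 12 days and 6502 FPKM at 5 days. The CAB genes are close copies, so their individual values are uncertain. Of the 8 lower calls 6 held on the implied error, and neither higher call did.

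Chlorophyll synthesis was lower in 7 of 12 members and higher in none (median log2 -0.34). Most of these lie between 100 and 500 FPKM, where the median over all members was -0.13 and 30.4% were called lower. PORA and PORB, the light-dependent protochlorophyllide reductases, showed the largest decreases. PORA was at 222 FPKM at 12 days and 581 FPKM at 5 days (log2 -1.39, implied error 0.20), and PORB was at 160 FPKM at 12 days and 330 FPKM at 5 days (log2 -1.05, implied error 0.32). GSA, which makes the precursor aminolevulinate, was at 282 FPKM at 12 days and 475 FPKM at 5 days (log2 -0.75). The magnesium chelatase subunits CHLD, CHLH and CHLI fell by 0.41, 0.35 and 0.32 on the log2 scale (q 0.00558, 0.0273 and 0.0183 in the authors' deposited table). On the implied error the calls of PORA, PORB and GSA held, and the other 4 did not. Of 6 chlorophyll breakdown genes, 2 were called higher, beside 15.1% over all members. They were SGR, the stay-green magnesium dechelatase, at 10.7 FPKM at 12 days and 5.21 FPKM at 5 days (q 0.00301 in the authors' deposited table), and PAO, an oxygenase that opens the ring (log2 0.36, q 0.0299 in that table). Neither call held with the implied error. GLK2, a transcription factor that activates chloroplast genes, was called higher (53.2 FPKM at 12 days and 33.3 FPKM at 5 days, log2 0.68), while its partner GLK1 had 103 FPKM at 12 days and 118 FPKM at 5 days and was not called.

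**Figure D3:**
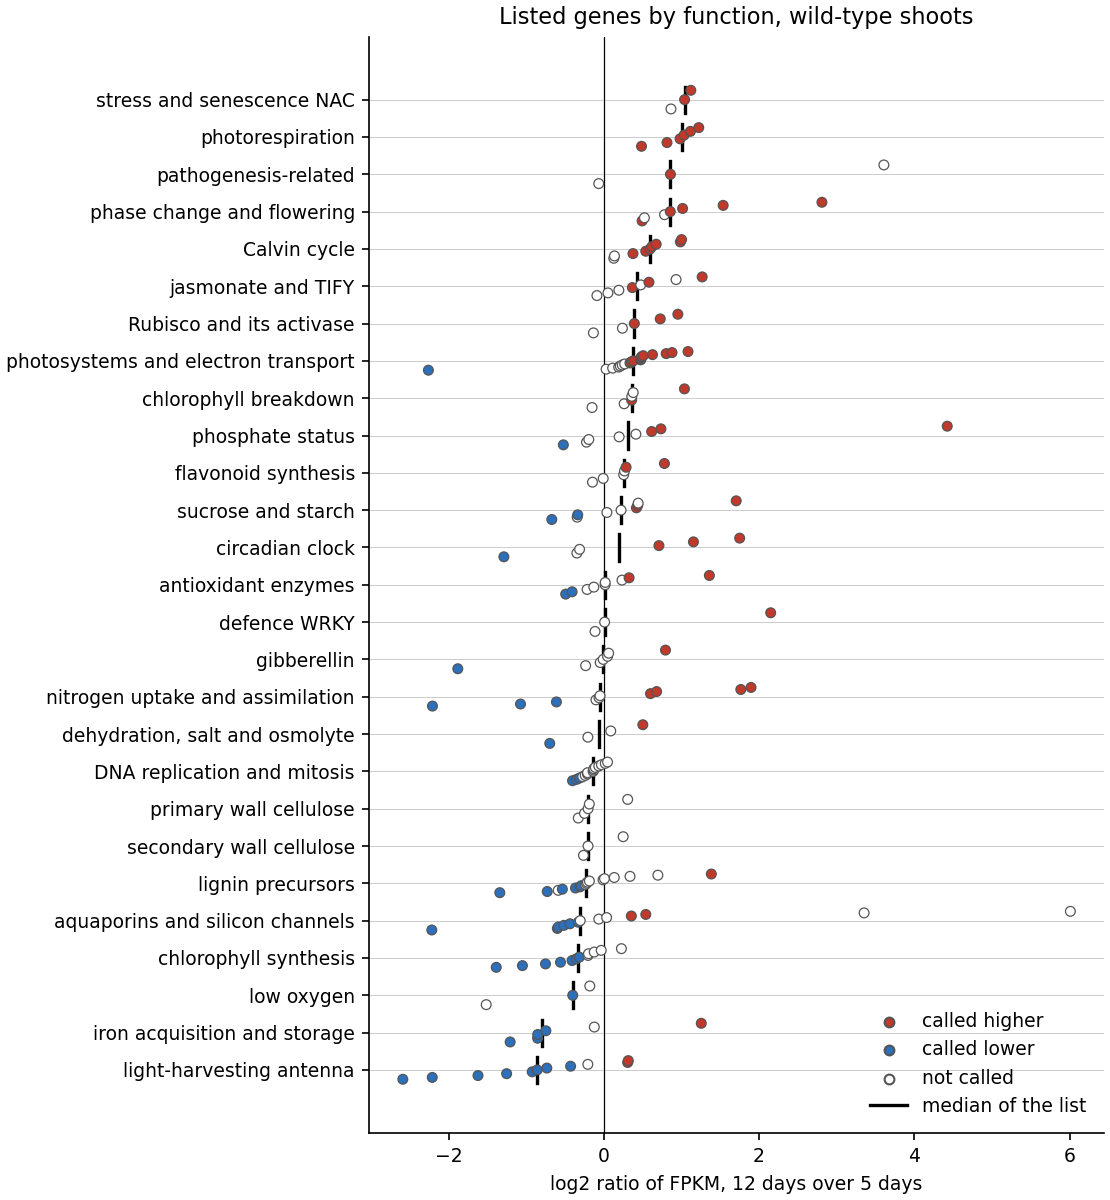
Each point is 1 listed member; the horizontal axis is the log2 ratio of FPKM in 12-day over 5-day wild type, rows are functional lists of at least 3 members, and the black bar is the median of the list. Red points were called higher, blue points lower and white points in neither direction; photorespiration lies wholly right of zero (median 1.01) and most of the antenna left of it (median -0.86). LEA3, listed at 0 at 5 days, has no ratio and is left out.

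Nitrogen genes moved in both directions, 4 higher and 3 lower of 10, beside 15.1% higher and 14.0% lower over all members. NIA1, a nitrate reductase (chromosome 8, Os08g0468100), was at 63.2 FPKM at 12 days and 17.0 FPKM at 5 days (log2 1.90, implied error 0.22). AMT1;1, an ammonium transporter, was at 71.2 FPKM at 12 days and 20.9 FPKM at 5 days (log2 1.77, implied error 0.23). The plastid enzymes that fix ammonium, GS2 and FD-GOGAT, were called higher with log2 ratios of 0.60 and 0.68 (q 0.000253 and 0.000483 in the authors' deposited table). ASN1, an asparagine synthetase, was at 19.7 FPKM at 12 days and 90.9 FPKM at 5 days (log2 -2.21, implied error 0.24). The cytosolic glutamine synthetase GS1;2 was at 33.7 FPKM at 12 days and 70.8 FPKM at 5 days (log2 -1.07, implied error 0.22), and the nitrite reductase NIR1 was at 302 FPKM at 12 days and 461 FPKM at 5 days (log2 -0.61). Nitrate reductase and nitrite reductase, which act in sequence, thus moved oppositely. NIA1, AMT1;1, ASN1 and GS1;2 kept their calls on the implied error, and GS2, FD-GOGAT and NIR1 did not. The uptake genes NRT2.1 and AMT1;2 were listed at 0 at both ages.

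Phosphate genes gave 3 higher and 1 lower call among 8, beside 15.1% higher and 14.0% lower over all members. The largest ratio was that of PT4, a phosphate transporter (chromosome 4, Os04g0186400), at 9.19 FPKM at 12 days and 0.428 FPKM at 5 days (log2 4.42, implied error 1.73). SPX1, a phosphate-sensing repressor, was at 20.5 FPKM at 12 days and 12.3 FPKM at 5 days (log2 0.74, q 0.00132), and PHO1;2, a phosphate exporter, was at 5.97 FPKM at 12 days and 3.89 FPKM at 5 days (q 0.0145) in the authors' deposited table. PAP10, an acid phosphatase, was called lower (log2 -0.52, q 0.00574 in that table). None of these calls held with the implied error as the test.

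Iron genes were lower in 4 of 6 members (median log2 -0.80), beside 14.0% lower over all members. NAS3, a nicotianamine synthase that makes the metal chelator of the phloem, was at 15.1 FPKM at 12 days and 34.7 FPKM at 5 days (log2 -1.21, implied error 0.27). The iron storage proteins FER1 and FER2 were at 71.2 and 96.4 FPKM at 12 days, and at 129 and 162 FPKM at 5 days. FER1 and FER2 are close copies and may share reads. The vacuolar iron transporter VIT2 was also called lower (log2 -0.85, q 0.00750), and the bHLH regulator IRO3 was called higher at 6.84 FPKM at 12 days and 2.87 FPKM at 5 days (log2 1.26, q 0.0197) in the authors' deposited table. With the implied error, the NAS3, FER1 and FER2 calls held.

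Aquaporins, the water channels of plasma membrane (PIP) and vacuole (TIP), were lower in 6 and higher in 2 of 13 members, LSI1 included. The shares over all members were 14.0% lower and 15.1% higher. All of the lower aquaporins except LSI1 reached 500 FPKM or more, a level at which 40.3% of all members were called lower. TIP1;1 was at 719 FPKM at 12 days and 1088 FPKM at 5 days (log2 -0.60), and PIP2;1 was at 607 FPKM at 12 days and 910 FPKM at 5 days (log2 -0.58). PIP2;7 was called higher at 147 FPKM at 12 days and 101 FPKM at 5 days (log2 0.54). Of the 8 calls, that of LSI1 alone held with the implied error. A pair chosen after their values were seen had large ratios without a call. TIP1;2 was at 20.7 FPKM at 12 days and 0.321 FPKM at 5 days (log2 6.01, implied error 2.39, q 0.332 in the authors' deposited table). PIP1;3 was at 43.6 FPKM at 12 days and 4.27 FPKM at 5 days (log2 3.35, implied error 2.32, q 0.268 in that table).

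**Figure D4:**
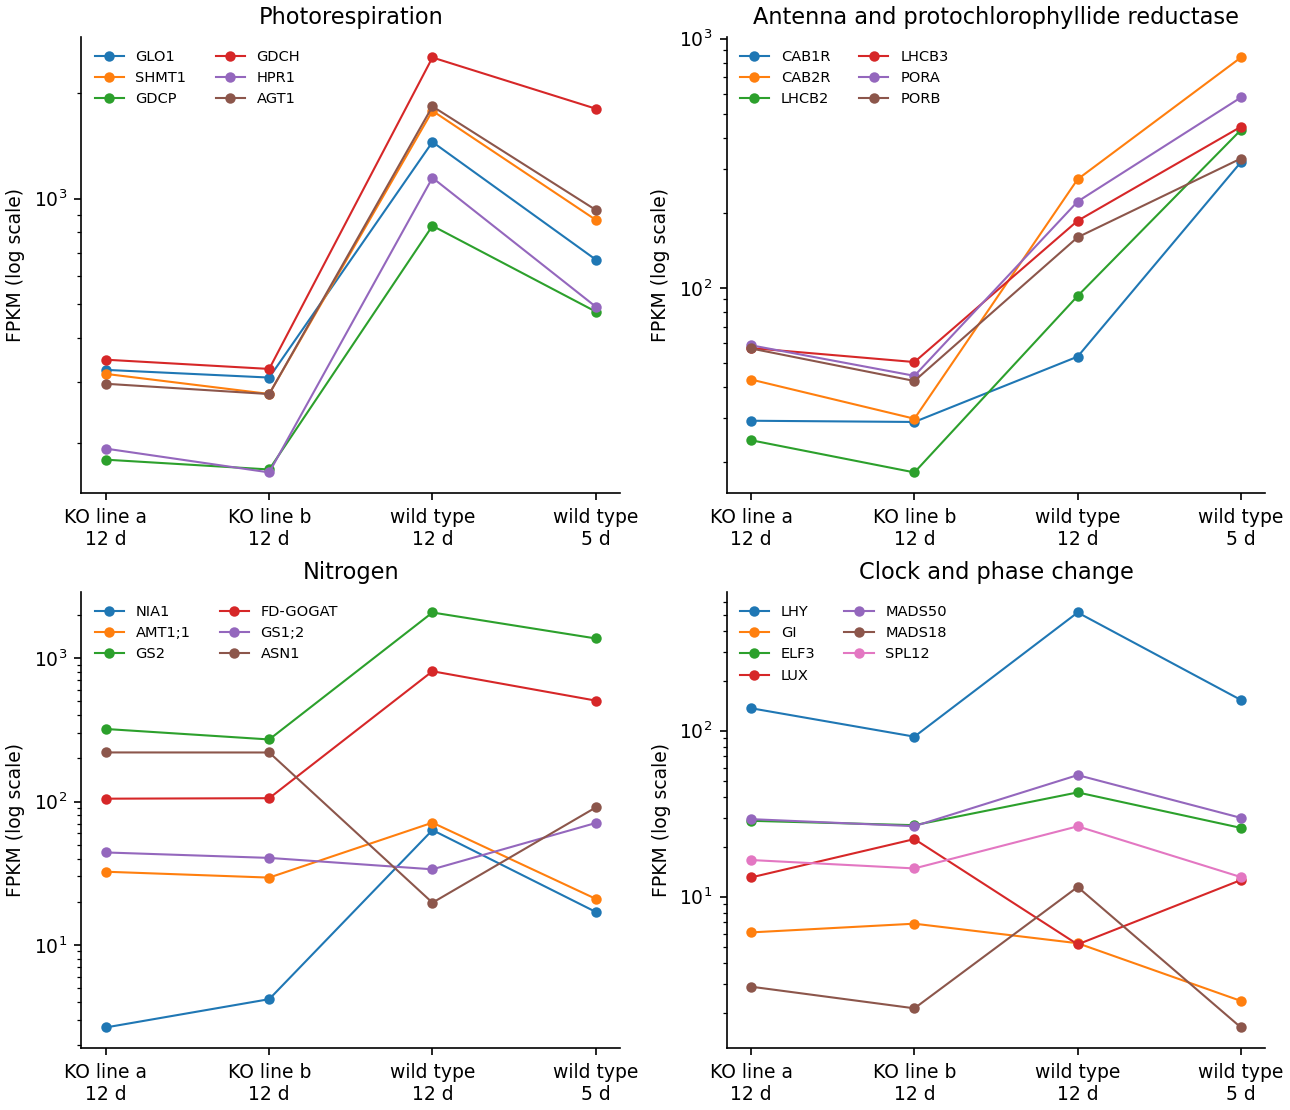
FPKM on a log scale in knockout line a, knockout line b, 12-day wild type and 5-day wild type for genes of 4 functions; each point is the authors' single value for a group and lines join the values of 1 gene. All 6 photorespiration genes peak in 12-day wild type, and the 4 antenna and both protochlorophyllide reductase genes drawn are highest in 5-day wild type.

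Phase-change genes were higher in 5 of 7 members and lower in none (median log2 0.86), beside 15.1% higher over all members. SPL12, a target of miR156 in the juvenile-to-adult transition, was at 26.6 FPKM at 12 days and 13.1 FPKM at 5 days (log2 1.02, implied error 0.30). SPL13, of the same family, was at 6.10 FPKM at 12 days and 2.1 FPKM at 5 days (log2 1.54, implied error 0.61, q 0.00247 in the authors' deposited table). MADS18, a MADS-box factor of the AP1/FUL group, was at 11.4 FPKM at 12 days and 1.63 FPKM at 5 days (log2 2.81, implied error 0.96, q 0.00750 in that table). MADS50, a promoter of flowering, was at 54.0 FPKM at 12 days and 29.9 FPKM at 5 days (log2 0.86, implied error 0.40, q 0.00190 in that table). The florigen gene HD3A was at 0.957 FPKM at 12 days and 0.239 FPKM at 5 days. Its upstream activator EHD1 and the flowering repressor GHD7 were listed at 0 in both. With the implied error, SPL12 alone kept its call.

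Of 6 clock genes, 3 were called higher and 1 lower, beside 15.1% higher and 14.0% lower over all members. LHY, a morning-phased repressor, was at 515 FPKM at 12 days and 153 FPKM at 5 days (log2 1.75, implied error 0.32). The evening-complex gene ELF3 was at 42.5 FPKM at 12 days and 26.0 FPKM at 5 days (log2 0.71), and GI was at 5.25 FPKM at 12 days and 2.36 FPKM at 5 days (log2 1.15, implied error 0.42). LUX, whose protein joins ELF3 in that complex, was at 5.16 FPKM at 12 days and 12.6 FPKM at 5 days (log2 -1.29, implied error 0.48). LHY and ELF3 kept their calls on the implied error, and GI and LUX did not. The hour of harvest is not given in the sources used here. Many chloroplast genes cycle through the day, and the part of harvest time in their results was not tested.

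Among gibberellin genes, 1 was called lower and 1 higher of 7, a share near the 29.1% called over all members. KAO, which oxidises kaurenoic acid, was at 4.65 FPKM at 12 days and 17.1 FPKM at 5 days (log2 -1.88, implied error 0.41). KS1, an earlier step of the same pathway, was at 16.1 FPKM at 12 days and 9.28 FPKM at 5 days (log2 0.79, implied error 0.29), and lost its call on the implied error. The growth repressor SLR1 had 78.5 FPKM at 12 days and 78.9 FPKM at 5 days. DNA replication and mitosis genes were called lower in 3 of 15 members and higher in none (median log2 -0.14), beside 14.0% lower over all members. The largest decrease there was that of the mitotic cyclin CYCB2-2, at 18.6 FPKM at 12 days and 24.5 FPKM at 5 days (q 0.0180 in the authors' deposited table). None of these 3 calls held with the implied error.

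Sucrose and starch genes gave 3 higher and 2 lower calls among 9, beside 15.1% higher and 14.0% lower over all members. GBSSII, the granule-bound starch synthase of leaves, was at 43.9 FPKM at 12 days and 13.5 FPKM at 5 days (log2 1.71, implied error 0.25). CIN2, a cell-wall invertase, was at 30.7 FPKM at 12 days and 48.9 FPKM at 5 days (log2 -0.67, implied error 0.22). SUS1, the most abundant, had 2137 FPKM at 12 days and 2711 FPKM at 5 days and was not called. GBSSII and CIN2 kept their calls on the implied error. AGPL1 (log2 0.42, q 0.00424) and SSI (log2 0.44, q 0.0290), which were called higher in the authors' deposited table, and SUT1 (log2 -0.34, q 0.0435), called lower there, did not.

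Lignin precursor genes were lower in 6 of 17 members and higher in 1 (median log2 -0.22), beside 14.0% and 15.1% over all members. PAL4, a phenylalanine ammonia-lyase at the entry to the pathway, was at 7.30 FPKM at 12 days and 18.5 FPKM at 5 days (log2 -1.34, implied error 0.30). PAL6 was the exception, at 18.8 FPKM at 12 days and 7.19 FPKM at 5 days (log2 1.39, implied error 0.29). These PAL genes lie in clusters of close copies, and reads may be split among them. PAL1, the most abundant, was at 673 FPKM at 12 days and 867 FPKM at 5 days (log2 -0.36, q 0.0212 in the authors' deposited table). C3'H1 itself was called lower at 12 days in wild type (log2 -0.31, implied error 0.22, q 0.0344 in that table). PAL4 and PAL6 kept their calls with the implied error, and the other 5 did not. The cellulose synthases were not called in either direction, 0 of 5 for the primary wall and 0 of 3 for the secondary wall, by the deposited q of Cuffdiff or by the implied error; 2 of these 8 had an unadjusted deposited p under 0.05. In flavonoid synthesis 2 of 6 members were called higher and none lower, beside 15.1% higher and 14.0% lower over all members. CYP75B3, a hydroxylase of the flavonoid ring, was at 58.3 FPKM at 12 days and 33.9 FPKM at 5 days (log2 0.78, implied error 0.22). CYP93G2 was also called (log2 0.29, q 0.0386 in the authors' deposited table) but lost its call on the implied error. The chalcone synthase CHS1, the most abundant, had 275 FPKM at 12 days and 228 FPKM at 5 days and was not called (q 0.0612 in that table).

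Stress and defence lists were small, and the calls in them mostly higher at 12 days. Over all members 15.1% were called higher and 14.0% lower, and nothing is read from counts such as 1 of 3. WRKY45, a regulator of salicylate-dependent defence, was at 39.8 FPKM at 12 days and 8.96 FPKM at 5 days (log2 2.15, implied error 0.38), 1 of 3 WRKY members called. Of 3 pathogenesis-related members, the chitinase CHT1 was called, at 17.8 FPKM at 12 days and 9.81 FPKM at 5 days (q 0.000914 in the authors' deposited table), whereas the thaumatin-like PR5 had 15.5 FPKM at 12 days and 1.27 FPKM at 5 days with no call (log2 3.61, implied error 1.28, q 0.101). PR5 was singled out after its value was seen. The stress-induced NAC factors SNAC1 and NAC6 were called higher with log2 ratios of 1.12 and 1.04 (implied errors 0.35 and 0.24). Of 8 jasmonate and TIFY members, 3 were called higher, the largest being TIFY10C at 9.60 FPKM at 12 days and 3.99 FPKM at 5 days (log2 1.27, q 0.00407 in that table). LEA3, a late embryogenesis abundant protein of dry tissues, was at 6.05 FPKM at 12 days and listed at 0 at 5 days, and was called higher. The lectin SALT was called lower, at 112 FPKM at 12 days and 181 FPKM at 5 days (log2 -0.70). In the low-oxygen list, the pyruvate decarboxylase PDC2 was called lower (log2 -0.40, q 0.00301 in that table), and the alcohol dehydrogenase ADH1 had 93.8 FPKM at 12 days and 106 FPKM at 5 days without a call. On the implied error the calls of WRKY45, SNAC1, NAC6 and SALT held, and those of CHT1, TIFY10C and PDC2 did not.

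The knockout lines, also 12 days old, differed from 12-day wild type at many loci, though most members were not called. Of the members tested against 12-day wild type, line a had 18.1% called higher and 26.3% lower, and line b had 18.9% and 27.2%. Membership rests on wild-type levels, so loci expressed only in the knockouts are left out of all shares in this paragraph. Nothing is therefore read from lower calls outnumbering higher ones. Calls shared by the lines made up 15.6% higher and 23.5% lower. Lower than 12-day wild type in both lines were all 6 photorespiration genes, all 11 antenna genes, all 12 chlorophyll synthesis genes, all 9 Calvin cycle genes and 13 of 15 DNA replication genes. Other lists were higher in both lines, with all 3 members each of the pathogenesis-related, defence WRKY and NAC lists. So were 6 of 8 jasmonate and TIFY genes and 9 of 17 lignin precursor genes, 3 of these 17 being lower. Of 5 primary wall cellulose synthases, 0 were called in both lines. Set against 5-day wild type, 21.7% of members were higher and 29.3% lower in line a, and 22.5% and 29.9% in line b. Relative to 5-day wild type, the median log2 ratio of the photorespiration genes was -1.43 for line a, -1.61 for line b and 1.01 for 12-day wild type. These comparisons share wild-type groups. HPR1 was at 193 FPKM in line a, 165 FPKM in line b, 1147 FPKM in 12-day wild type and 491 FPKM in 5-day wild type. LHY was at 137 FPKM in line a, 92.1 FPKM in line b, 515 FPKM in 12-day wild type and 153 FPKM in 5-day wild type. MADS18 was at 2.87 FPKM in line a, 2.13 FPKM in line b, 11.4 FPKM in 12-day wild type and 1.63 FPKM in 5-day wild type. HPR1 was called lower in both lines than in either wild-type group. For LHY, line b was called lower than 5-day wild type (q 0.000483) and line a was not (q 0.503), by the authors' deposited table. The authors did not test MADS18 between the lines and 5-day wild type. Unlike HPR1, LHY and MADS18, WRKY45 was above 12-day wild type in both lines. It was at 67.4 FPKM in line a and 54.0 FPKM in line b (q 0.000253 and 0.00687 in the authors' deposited table). The KNOX genes OSH1 and OSH71 stood at 5.91 and 6.30 FPKM in line a and at 5.00 and 6.11 FPKM in line b. Their levels were 3.18 and 1.80 FPKM in 12-day wild type, whereas in 5-day wild type OSH1 was listed at 0 and OSH71 had 0.0937 FPKM.

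Loci listed at 0 at one age were few. At 5 days 18 members were listed at 0, of which 17 were called, and at 12 days 5 were, of which 3 were called. Such loci became members only through their level in the other group, so nothing is read from how many were called. For called genes outside the functional lists with values above 0 at both ages, the largest ratios each way are given by identifier alone. Os08g0139700 (chromosome 8, 2172715 to 2213901) was at 933 FPKM at 12 days and 0.866 FPKM at 5 days (log2 10.07, implied error 2.21, with a q of 0.00889 by the authors' deposited table). The knockout values were 4.03 FPKM in line a and 2.96 FPKM in line b. Os02g0194700 (chromosome 2, 5276685 to 5282723) was at 73.8 FPKM at 12 days and 0.935 FPKM at 5 days (log2 6.30, implied error 0.70). In the other direction, Os01g0216000 (chromosome 1, 6340835 to 6344286) was at 4.64 FPKM at 12 days and 186 FPKM at 5 days (log2 -5.32, implied error 0.40). Os08g0423500 (chromosome 8, 20283056 to 20285501) was at 1.45 FPKM at 12 days and 37.8 FPKM at 5 days (log2 -4.70, implied error 0.93).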

How the data were processed

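RNA from whole aerial parts was measured in 12 samples, 6 of them in the comparison described. Per the submitters' processing notes, Trimmomatic, FastQC, HISAT2, Cufflinks and Cuffdiff were used with build IRGSP-1.0; versions, options and annotation release are not given in the sources used here. The authors deposited 1 FPKM value per group, a log2 ratio, a score (the Cuffdiff test statistic) and p-value and q-value columns for each locus and pair of groups. The deposited q-values matched a Benjamini-Hochberg adjustment over all 108602 tests of 6 comparisons to within 5.27e-07, and the smallest deposited p-value was 5e-05. Over the members the normal deviate of the deposited p was a median 1.76 times the test statistic, so the deposited q calls more loci than the implied error does. That reading took the statistic as a normal deviate and adjusted its p over the comparison.

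The log2 ratio of 12-day over 5-day FPKM was recomputed and matched the deposited ratio to within 1.5e-05. Members had a completed test and at least 5 FPKM in one group. Columns of per-sample values left unused numbered 0. Members, lists and tests were chosen with earlier results of these data known, so the lists are described by counts and medians and carry no test of their own. The genes named were, for each list, up to 4 called members with the largest ratios and the most abundant member, the 15 largest rises and 15 largest falls over all lists, listed members at 0 in one group, C3'H1, and 2 unlisted genes each way; the marker genes and a few that were not called were added. Of 325 symbols written, 221 lay at the same place in RefSeq assembly ASM3414082v1 (within 0.5 Mb after alignment to neighbouring matches), 96 were absent from it and kept by locus, 7 were dropped as lying elsewhere and 1 for want of a row. MCM2 is in 2 loci, and the one holding that gene alone was used. Python 3.11.15, numpy 2.4.6, pandas 2.3.3, scipy 1.17.1 and matplotlib 3.10.9 were used. The recomputed ratio, its direction and the calls on the implied error were tested on simulated data. Calls by the deposited q were not covered by that test.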

Additional observations from a re-analysis of the deposited data

How the results depend on the processing

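The alternatives run were a q threshold of 0.01, FPKM minimums of 1, 10 or none, a pseudocount of 1, and adjustment over this comparison alone. Others were the implied error as the test, centring on the median ratio (-0.02), and loci with 1 annotated gene only. A direction is set by which group has the higher FPKM. Thresholds, filters, adjustment, pseudocount and implied error cannot change that, and centring moves ratios very little, so unchanged directions lend no support. With the implied error as the test, 1113 members were called in place of 4766, 755 higher and 358 lower, and at least 2-fold calls numbered 685, 523 higher and 162 lower. The listed members called then numbered 43, 23 higher and 20 lower. On the same members, calls of line a and line b numbered 3758 and 3874 against 12-day wild type, and 4677 and 4940 against 5-day wild type, in place of 7196, 7453, 8256 and 8484. At a q threshold of 0.01, 1441 members were called lower in place of 2289. Of 101 named genes with a ratio (called or most abundant in a list), 44 lost the call with the implied error. At a q threshold of 0.01, 13 lost it, and with adjustment over this comparison alone 3 did. The 101 include most-abundant members that were never called and had no call to lose, so the share of calls lost is larger than these counts over 101. The pseudocount and the centring leave the deposited q as it is, so no call could be lost under them. No paired analysis was possible because the deposited table holds 1 value per group, and leaving out each replicate was not run for the same reason. Depth is unknown, so no limit for a value of 0 is given. Of 332 members with ratios of 4-fold or more and values above 0, 93 were not called, and their median implied error was 1.71.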

Other observations

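Members called at least 2-fold the same way sometimes lay side by side. Among neighbouring members there were 53 pairs and 9 triplets called higher, and 14 pairs, 1 triplet and 1 run of 5 called lower. Over all members, 5.06% were called at least 2-fold higher and 1.81% lower. Neighbours here are next to each other in the order of members only, and pairs span up to 180.5 kilobases. The number of runs that random placement would give was not worked out, so no clustering is read from these counts. The run of 5 spans chromosome 7, 21133304 to 21225870 (IRGSP-1.0), with 1.95 to 6.07 FPKM at 12 days and 5.42 to 28.2 FPKM at 5 days. A triplet on chromosome 7, 24788475 to 24810396, starts with MADS18, at 11.4 FPKM at 12 days and 1.63 FPKM at 5 days. Its neighbours were at 15.8 and 116 FPKM at 12 days, and at 1.69 and 16.6 FPKM at 5 days. Whether reads of one gene were assigned to its neighbours was not tested.

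Members without an annotated gene were called in 24.3% of cases, 35 higher and 38 lower, and members that merge several genes in 21.0%, against 29.1% of all members. One unannotated locus of 39 bases was listed at 7225430 FPKM at 12 days and 2724740 FPKM at 5 days, a span for which FPKM is hard to interpret.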
